A study of Sus scrofa with 2 samples.

Results

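The genes described are 9 genes of retinoid metabolism and binding: STRA6, RBP4, CRABP2, DHRS3, ALDH1A1, ALDH1A2, RARA, RARB and RARRES1. They are 9 of the 22342 genes listed for the somatic cells of 2 porcine antral follicles, and each symbol matched exactly 1 row. The set was chosen by name with earlier values from these libraries known, and those values are levels in the same cells and the same contrast between follicles. All levels, folds and counts below are therefore a description, and no test was made on them.

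The cells came from one Landrace × Yorkshire pig, pubertal at 210 days of age, which per the study's methods had been injected with pregnant mare serum gonadotropin, a hormone that promotes follicle growth. Both follicles exceeded 7 mm in diameter and were classed as healthy. The fluid was flushed out, and cumulus-oocyte complexes were isolated by needle, pipetted in hyaluronidase and washed to strip off cumulus cells. Granulosa cells in the resulting fluid were spun down and loaded on the 10x Genomics Chromium 3′ platform. The study reports both mural and cumulus granulosa cells among them. There was 1 library per follicle and no untreated pig, so the follicles AF75 (follicle 1) and AF76 (follicle 2) differ as single libraries. The study named the follicles AF75 and AF76 and the deposited files carry those names.

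Retinol travels in blood and follicular fluid bound to a carrier protein, enters cells through a receptor, and is oxidised first to retinal and then to retinoic acid. Retinoic acid is handed to nuclear receptors that sit on DNA as partners of the retinoid X receptors, and CYP26 enzymes break it down. In the ovary, granulosa cells are known to make retinoic acid, and the signal has been tied to follicle growth and to the oocyte's meiosis.

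The libraries held 14289 barcodes and 125409747 unique molecular identifiers (UMIs, each marking 1 captured RNA molecule) in AF75, and 15548 barcodes and 127414267 UMIs in AF76. Barcodes with 2000 to 5000 genes and under 7% mitochondrial UMIs were kept, 9362 in AF75 and 7843 in AF76, together 17205 of 29837. The median cell kept had 11254.5 UMIs in AF75 and 13902 in AF76. A level is given as CPM, the gene's UMIs per 1000000 of all UMIs in the same cells, with an exact 95% Poisson interval in parentheses. Intervals cover counting error only, and cells are not replicates. There were 56 barcode sequences found in both libraries, of which 18 were kept in both.

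The cells fell into 8 clusters, made without the retinoid genes. The 3 genes of largest fold were TGFB3, TSPAN12 and ENPP2 in cluster 0, INSIG1, HMGCS1 and MVD in cluster 1, CALCRL, SLC10A4 and ALPK2 in cluster 2, and STAR, STARD4 and an unnamed gene in cluster 3. DEFB1, CCL26 and CEMIP led cluster 4, and TOP2A, CDCA8 and DIAPH3 led cluster 5, whose genes are those of dividing cells. In cluster 6 they were ALDH1A2 itself, SLC24A1 and C12orf75, and in cluster 7, of 24 and 25 cells, they were CXCL10, RSAD2 and IFIT2. Cluster 2 held 1577 cells of AF75 and 106 of AF76, and cluster 4 held 2 cells of AF75 and 683 of AF76. Doublets were not removed.

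Cluster 4 stood apart in its markers as well as in its follicle. Leaving aside the 2 AF75 cells, the 8 granulosa markers summed to 6570 CPM there and to 18648 to 28432 CPM in the others. The lower sum was mostly the inhibin subunit INHA, at 2238 CPM beside 11546.5 to 24895.3 CPM in the others. The FSH receptor FSHR at 37.9 CPM and FST at 389 CPM were higher than in any other cluster. GJA1, INHBA, CYP11A1 and CYP19A1 lay inside the range of the others. AMH had 1 UMI in cluster 4 and 0 in the others. The 4 smooth muscle markers summed to 164 CPM, against 0 to 8.44 CPM elsewhere, almost all of it MYH11 at 102 CPM and ACTA2 at 60.8 CPM, while DES had 1 UMI and CNN1 was at 1.24 CPM, below the 7.22 CPM of cluster 5 in AF75. The 8 leukocyte markers summed to 206 CPM, against 10.8 to 23.2 CPM elsewhere except for 146 CPM in the 25 cells of cluster 7 in AF76. Cluster 4 held 8 of the 9 leukocyte-like AF76 cells described below, and their part in this sum was not tested. The 7 theca or stroma markers summed to 78.9 CPM, inside the range of 58.6 to 826 CPM of the other clusters, but that sum is mostly INSL3, a theca hormone, at 35.7 CPM beside 58.0 to 826 CPM elsewhere. The stromal matrix genes were higher in cluster 4 than in any other cluster, with DCN at 18.1 CPM beside at most 1.35, LUM at 13.2 beside at most 0.705 and COL1A1 at 9.07 beside at most 2.24. The endothelial marker VWF was at 22.3 CPM beside at most 4.04, while CDH5 had no UMI there and KDR had 3. Its median cell had 6439 UMIs, below the 13942 of cluster 0 in AF76. Cluster 4 is called by its number here, and the part of these markers and of depth in the values below was not tested.

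Coordinates are those of RefSeq genes on the build Sscrofa11.1, which the study also names as its reference. A retinoic acid receptor pair can bind a DR5 element, a pair of half-sites spaced by 5 bases, and this element was searched for within 5 kb on both sides of each gene start on both strands. The element found at RARB and those at CYP26A1, a retinoic acid clearance gene with no UMI here, are shown because both genes are textbook targets of the receptors. Capitals mark the half-sites, and each sequence runs 5′ to 3′ on the strand named.
RARB, chr13:12336550-12336566, plus strand, in an intron: GGTTCAcggaaAGTTCA
CYP26A1, chr14:104561680-104561696, plus strand, in a noncoding exon stretch: GGGTCAcaggcGGGTCA
CYP26A1, chr14:104563530-104563546, minus strand, in a noncoding exon stretch: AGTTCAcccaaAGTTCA
CYP26A1, chr14:104560324-104560340, minus strand, upstream of the gene: GGTTCActaagGGGTCA
RARB was the only one of the 9 genes with such an element, whose first base lay 164 bases downstream of the RARB start. Of 19572 protein-coding genes, 569 (2.91%) had at least 1. A match describes letters and not a bound site, and no match says only that these letters are not in the window.

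The stretches before the starts of CRABP2 and RARRES1 are shown because CRABP2 had the largest difference between the follicles and RARRES1 was detected in nearly every cell. Capitals mark TATAAA in CRABP2, and in RARRES1 the half-site AGGTCA, whose reverse complement is TGACCT. The RARRES1 stretch is the 250 bases up to its gene start. The CRABP2 stretch is only the first 150 of the 250 bases before its start and stops short of it. TATAAA in CRABP2 begins at base -136 from the gene start.
CRABP2, chr4:93387948-93388097, plus strand: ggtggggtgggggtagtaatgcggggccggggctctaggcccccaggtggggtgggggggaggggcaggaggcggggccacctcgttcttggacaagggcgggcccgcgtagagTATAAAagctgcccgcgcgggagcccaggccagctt
RARRES1, chr13:98506553-98506802, minus strand: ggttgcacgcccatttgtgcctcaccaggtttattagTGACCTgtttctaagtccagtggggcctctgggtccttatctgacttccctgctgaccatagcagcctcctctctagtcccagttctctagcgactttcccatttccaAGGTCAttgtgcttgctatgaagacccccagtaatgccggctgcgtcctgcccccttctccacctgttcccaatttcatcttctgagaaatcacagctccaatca
From 250 bases before to 50 bases after the gene start, on either strand, 2765 of the 19572 genes (14.1%) held AGGTCA, 2139 (10.9%) held TATAAA and 9 (0.0460%) held a DR5 element. Of the 9 retinoid genes, RARRES1 alone held AGGTCA there, while CRABP2 and RBP4 held TATAAA.

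Between the follicles, RBP4 and ALDH1A2 were higher in AF75, and CRABP2 and DHRS3 were higher in AF76. Of the 8 genes with at least 50 UMIs in the follicles together, 4 were at least 2-fold apart, beside 4.44% of the 12172 genes with as many UMIs. Split by direction, 2 were higher in AF76 beside 1.85% of all genes, and 2 were higher in AF75 beside 2.59%. The median size of the log2 ratio was 1.00 over the 8 genes and 0.14 over all 12172. Since the genes were chosen with this contrast known, nothing is read from these shares. The remaining gene, ALDH1A1, had no UMI.

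**Figure D1:**
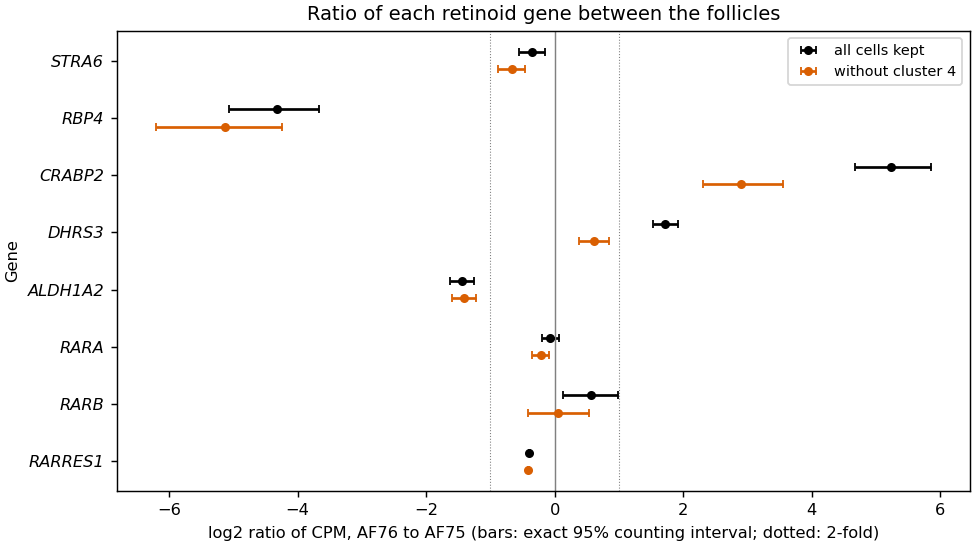
Log2 ratio of the level in AF76 to that in AF75 (x axis) for the 8 retinoid genes with UMIs, with exact 95% intervals for counting error, for all cells kept (black) and without cluster 4 (orange), dotted lines marking 2-fold. CRABP2 lies farthest right at 5.23 and RBP4 farthest left at -4.33, and leaving out cluster 4 moves CRABP2 to 2.90 and DHRS3 from 1.72 to 0.61.

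STRA6 (ENSSSCG00000001909, chr7:59317930-59347274, plus strand) encodes the membrane receptor that takes retinol from its carrier. It had 496 UMIs in AF75, 4.46 CPM (4.08 to 4.87), and 381 UMIs in AF76, 3.50 CPM (3.16 to 3.87). AF76 was at 0.784 times the AF75 level (0.685 to 0.898), and at 0.629 times (0.543 to 0.728) with cluster 4 left out. STRA6 was spread over the clusters of AF75, at 5.10 CPM for cluster 0, 3.72 for cluster 1, 5.01 for cluster 2, 5.01 for cluster 3 and 4.08 for cluster 5, with intervals that overlap except between clusters 0 and 1, and at 0.486 CPM from 1 UMI in cluster 6. In AF76 the highest level was in cluster 4, at 18.3 CPM (14.7 to 22.6) from 89 UMIs in 58 cells, 6.54-fold (5.10 to 8.32) above the other cells of that follicle. The other AF76 clusters of at least 50 cells lay between 1.96 and 4.49 CPM.

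RBP4 (ENSSSCG00000010479, chr14:105037360-105044552, minus strand) encodes the secreted plasma carrier of retinol. It had 389 UMIs in AF75, 3.50 CPM (3.16 to 3.86), and 19 in AF76, 0.174 CPM (0.105 to 0.272), 20.05-fold (12.7 to 33.7) higher in AF75. Cluster 2 held 305 of the AF75 UMIs at 18.2 CPM (16.2 to 20.4), 20.5-fold (16.02 to 26.4) above the other AF75 cells. The next AF75 cluster of at least 50 cells was cluster 5 at 2.45 CPM, and clusters 0, 1, 3 and 6 lay between 0.486 and 0.751 CPM. None of the 106 cluster 2 cells of AF76 had an RBP4 UMI, and with so few cells 3 UMIs would already be 2.12 CPM. Those AF76 cells also differed in their cumulus and mural markers from the AF75 cells of cluster 2. The 6 cumulus markers summed to 2294 CPM in the AF76 cells and 13035 CPM in the AF75 cells. The 6 mural markers summed to 6261 CPM in the AF76 cells and 2364 CPM in the AF75 cells. Of the 19 AF76 UMIs, 9 lay in cluster 4, at 1.86 CPM (0.848 to 3.52).

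RBP4 was carried by few cells even within cluster 2. Only 61 of its 1577 AF75 cells (3.87%, exact binomial interval 2.97 to 4.94) had a UMI, and the highest cell had 47. The 19 cells with 5 or more UMIs held 247 of the 305, or 81.0%, and the cluster without them was at 3.51 CPM. With such cells left out of every cluster, that was 4.73-fold above the other AF75 cells. Those 19 cells had a median of 10053 UMIs beside 10188 in the rest of the cluster, and the doublet score removed none of them. TNFAIP6, a hyaluronan-binding protein of the expanding cumulus, was at 9237 CPM in them and 3603 CPM in the rest, the BMP target ID3 at 399 and 67.7 CPM, and prostaglandin synthase PTGS2 at 185 and 40.2 CPM. The inhibin subunit INHA was lower in them, at 5258 CPM beside 11628. One further RBP4-rich cell, with 14 UMIs, was among the 2 AF75 cells of cluster 4.

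CRABP2 (ENSSSCG00000006472, chr4:93388198-93393861, plus strand) encodes a cytoplasmic protein that carries retinoic acid to the nucleus. It had 26 UMIs in AF75, 0.234 CPM (0.153 to 0.343), and 957 in AF76, 8.79 CPM (8.24 to 9.36). AF76 was 37.6-fold (25.5 to 57.8) higher. Cluster 4 held 775 of the AF76 UMIs (81.0%) in 243 of its 683 cells (35.6%), at 160 CPM (149 to 171), 91.3-fold (77.6 to 108) above the other AF76 cells. With cluster 4 left out the ratio between the follicles was 7.48 (4.94 to 11.8). A mean over cells of each cell's own CPM, which gives the shallow cells of cluster 4 more weight, put the log2 ratio at 6.14 in place of 5.23.

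CRABP2 stood in a like ratio to the cluster 4 genes CEMIP and CCDC80 in most AF76 clusters. For each 100 UMIs of those genes together there were 10.4 CRABP2 UMIs for cluster 0, 10.7 for cluster 1, 12.5 for cluster 3, 8.79 for cluster 4, 5.71 for cluster 5 and 5.56 for cluster 6. Cluster 2 differed, with 42.1 (21.9 to 77.3) from 16 UMIs in 9 of its 106 cells, at 11.3 CPM. The intervals of clusters 0, 1, 3, 5 and 6 all hold the cluster 4 value, but the UMIs were not spread evenly over cells. A single cell held 19 of the 70 UMIs of cluster 1, and a single cell held 5 of the 10 of cluster 5. How much of the CRABP2 outside cluster 4 was RNA carried in the fluid was not tested. In AF75, where cluster 4 had 2 cells, CRABP2 lay between 0.136 and 0.486 CPM in every cluster of at least 50 cells, each from 11 UMIs or fewer.

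Within cluster 4, CRABP2 was 242 CPM (221 to 264) in the 284 cells with a CEMIP UMI and 98.4 CPM (87.1 to 111) in the 399 cells without one, at median depths of 6489.5 and 6418 UMIs. DHRS3 did not separate in this way, at 93.4 CPM (80.7 to 107) and 105 CPM (92.9 to 117). STRA6 went the other way, at 10.1 CPM (6.26 to 15.4) and 24.5 CPM (19.0 to 31.1), and so did RARRES1, at 2016 CPM (1955 to 2078) and 2712 CPM (2651 to 2774). RARA was at 26.5 and 28.1 CPM, and RARB at 11.07 CPM (7.02 to 16.6) and 5.05 CPM (2.76 to 8.47), both with overlapping intervals. The 50 cells with 5 or more CRABP2 UMIs held 409 of the 775, and the smooth muscle actin ACTA2 was 294 CPM in them and 37.6 CPM in the rest of the cluster. Those 50 cells were deeper, with a median of 8305.5 UMIs beside 6407 in the rest, and the part of depth was not tested.

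**Figure D2:**
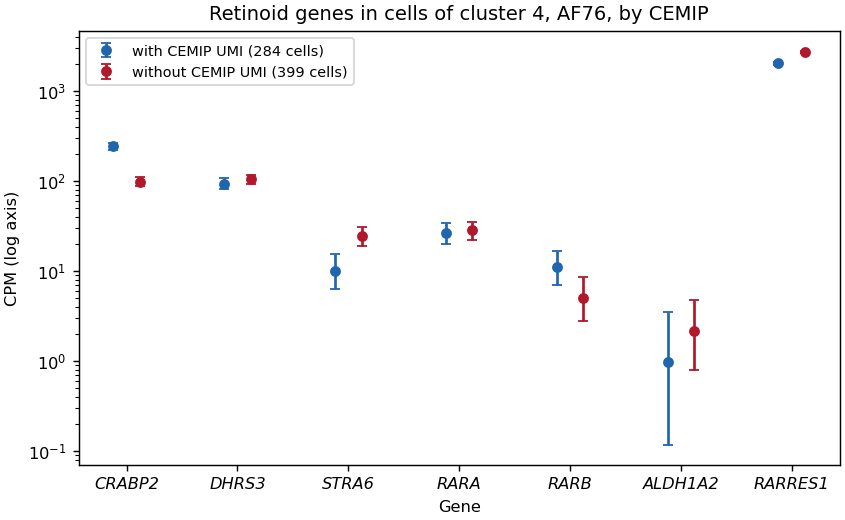
Level in CPM (log axis) of 7 retinoid genes in the cells of cluster 4 of AF76 with (284 cells) and without (399 cells) a CEMIP UMI, with exact 95% Poisson intervals for counting error. CRABP2 is at 242 and 98.4 CPM, STRA6 at 10.1 and 24.5 CPM and RARRES1 at 2016 and 2712 CPM, whereas the intervals overlap for DHRS3, RARA, RARB and ALDH1A2.

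DHRS3 (ENSSSCG00000003439, chr6:72556234-72599233, minus strand) encodes a reductase that turns retinal back into retinol and so lowers the supply for retinoic acid. It had 268 UMIs in AF75, 2.41 CPM, and 867 in AF76, 7.96 CPM, a 3.30-fold (2.88 to 3.80) difference. In AF76 cluster 4 held 484 UMIs (55.8%) in 263 cells (38.5%), at 99.8 CPM (91.1 to 109), 27.1-fold (23.7 to 31.1) above the other cells. With cluster 4 left out the ratio between the follicles was 1.53 (1.30 to 1.79), under the 2-fold limit.

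DHRS3 was less tied to cluster 4 than CRABP2 was. Its level in AF76 was 2.67 CPM for cluster 0, 4.80 for cluster 1, 4.23 for cluster 2, 3.27 for cluster 3 and 3.65 for cluster 6, and in AF75 the same clusters lay between 0.972 and 2.86 CPM. Cluster 0 was alike in the follicles, at 2.77 CPM (2.28 to 3.33) in AF75 and 2.67 CPM (2.26 to 3.14) in AF76. The dividing cells of cluster 5 were at 2.04 CPM from 15 UMIs in AF75 and 13.5 CPM (9.08 to 19.2) from 30 UMIs in AF76, a ratio of 6.59 (3.44 to 13.2), and CEMIP and CCDC80 together were 78.5 CPM in those AF76 cells beside 12.98 CPM in cluster 0. For each 100 UMIs of CEMIP and CCDC80, DHRS3 had 5.49 in cluster 4 and between 12.5 and 44.6 in the other AF76 clusters. In cluster 4, DHRS3 was found in 41.6% of the 243 cells with CRABP2 (35.3 to 48.0) and in 36.8% of the 440 cells without it (32.3 to 41.5), with overlapping intervals.

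ALDH1A1 (ENSSSCG00000028996, chr1:226163347-226217342, minus strand), an enzyme that oxidises retinal to retinoic acid, had 0 UMIs in both follicles, in the cells kept and in all deposited barcodes. For the UMIs counted on this feature, the limit of 3 UMIs is 0.0270 CPM for AF75 and 0.0275 CPM for AF76, or 0.0320% and 0.0383% of cells, and the exact 95% upper limits are 0.0332 and 0.0339 CPM. The count tables cannot show whether reads of this gene fell on another annotated feature or beyond the annotated 3′ end, and this was not tested.

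ALDH1A2 (ENSSSCG00000025578, chr1:113932722-114037059, plus strand) encodes another enzyme of the same step, and it was detected in both follicles. It had 905 UMIs in AF75, 8.14 CPM, and 328 in AF76, 3.01 CPM, 2.70-fold (2.38 to 3.08) higher in AF75. In both follicles cluster 6 was highest and the dividing cells of cluster 5 came next. Cluster 6 was at 87.0 CPM (74.7 to 100.7) in AF75 and 24.8 CPM (18.9 to 31.8) in AF76, 13.1-fold (11.04 to 15.4) and 9.88-fold (7.35 to 13.1) above the other cells. Cluster 5 was at 37.7 CPM (33.4 to 42.4) and 19.3 CPM (14.0 to 26.0), and the intervals of clusters 5 and 6 overlap in AF76. Cluster 3, led by the cholesterol transporter STAR, was at 9.39 CPM in AF75 cells and 5.24 CPM in AF76 cells. The remaining clusters of at least 50 cells lay between 3.04 and 4.24 CPM in AF75 and between 1.65 and 2.82 CPM in AF76, cluster 4 among them.

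The lower ALDH1A2 level of AF76 was seen inside most clusters. The ratio of AF76 to AF75 was 0.467 for cluster 0, 0.428 for cluster 1, 0.558 for cluster 3, 0.512 for cluster 5 and 0.285 (0.209 to 0.383) for cluster 6, and 0.927 (0.243 to 2.52) from 4 AF76 UMIs for cluster 2. In cluster 6 of AF75, 11 of the 176 cells had 5 or more UMIs and held 119 of the 179 UMIs (66.5%). Without them the cluster was at 31.2 CPM. With such cells left out of every cluster, that was 5.61-fold above the other AF75 cells. Those 11 cells differed from the rest of cluster 6: SCG2, a granin of secretory vesicles and a leading gene of the cluster, was 294 CPM in them and 3058 CPM in the rest, and the EGF-like ligand AREG was 196 and 2027 CPM. STAR was at 482 CPM in them and 84.1 CPM in the rest, and ID1 at 316 and 23.9 CPM. Without cells of 5 or more UMIs, the highest cluster for ALDH1A2 in AF76 was cluster 5 at 13.7 CPM in place of cluster 6.

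RARA (ENSSSCG00000017475, chr12:22047449-22085759, minus strand) and RARB (ENSSSCG00000011212, chr13:12336387-12507688, plus strand) encode retinoic acid receptors alpha and beta. RARA was near equal in the follicles, with 997 UMIs in AF75, 8.96 CPM, and 934 in AF76, 8.58 CPM, a ratio of 0.957 (0.874 to 1.05). Over all deposited barcodes the order turned, at 8.76 CPM for AF75 and 9.10 CPM for AF76. Outside cluster 4 it lay between 6.29 and 11.4 CPM in every cluster of at least 50 cells, and 1 AF75 cell of cluster 2 alone held 30 UMIs. In cluster 4 RARA was at 27.4 CPM (23.0 to 32.5) in 112 cells, 3.56-fold (2.94 to 4.28) above the other AF76 cells. Its DNA-binding partner RXRA was also higher there, at 25.4 CPM in cluster 4 and 7.39 CPM in the other AF76 cells. In that cluster 25% of all genes were at least 2-fold above the other cells. In AF75 the highest level lay in cluster 2 for RARA and in cluster 6 for RXRA. RARA was at 11.4 CPM (9.84 to 13.1) in cluster 2, or 9.61 CPM without cells of 5 or more UMIs. In cluster 6 RARA was at 8.75 CPM (5.18 to 13.8) from 18 UMIs, with an overlapping interval. RXRA was at 6.14 CPM (5.02 to 7.45) in cluster 2 and 12.6 CPM (8.25 to 18.5) from 26 UMIs in cluster 6. That cluster 6 interval of RXRA overlaps those of clusters 0, 3 and 5.

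RARB was sparse, with 79 UMIs in AF75, 0.710 CPM, and 114 in AF76, 1.05 CPM, a ratio of 1.47 (1.10 to 1.99). Cluster 4 held 37 of the AF76 UMIs at 7.63 CPM (5.37 to 10.5), 10.3-fold (6.77 to 15.4) above the other AF76 cells. With cluster 4 left out the ratio was 1.04 (0.751 to 1.44). In the other clusters of at least 50 cells RARB lay between 0.358 and 1.62 CPM, mostly from fewer than 10 UMIs. In cluster 4 RARB was found in 10.7% of the 112 cells with RARA (5.66 to 18.0) and 4.03% of the 571 cells without it (2.57 to 5.98), with intervals that just overlap. Counted the other way, RARA was found in 34.3% of the 35 cells with RARB (19.1 to 52.2) and 15.4% of the 648 cells without it (12.7 to 18.4), with intervals that do not overlap, and both counts rest on the same 12 cells. Of all pairs among CRABP2, DHRS3, STRA6, RARA and RARB, only this one had intervals that did not overlap. The cells with RARB had a median of 6905 UMIs beside 6435 in those without, and the part of depth was not tested.

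RARRES1 (ENSSSCG00000028623, chr13:98461307-98506552, minus strand) encodes a membrane protein named as a retinoic acid receptor responder. It had 288694 UMIs in AF75, 2596 CPM, and 214828 in AF76, 1972 CPM, a ratio of 0.760 (0.756 to 0.764). A UMI was found in 99.9% of AF75 cells and 99.7% of AF76 cells. Cluster 1, led by sterol synthesis genes, had a median of 35 RARRES1 UMIs per cell in AF75 and 37 in AF76, and cluster 0 had 19 and 16. In CPM cluster 1 was at 3313 and 2795, and cluster 0 at 1926 and 1413. AF76 was lower in clusters 0, 1, 3, 5 and 6, at 0.734 to 0.939 times AF75, and higher in cluster 2 at 1.24 times (1.21 to 1.28). Cluster 4 was at 2414 CPM, within the range of 1413 to 3463 CPM of the other AF76 clusters.

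**Figure D3:**
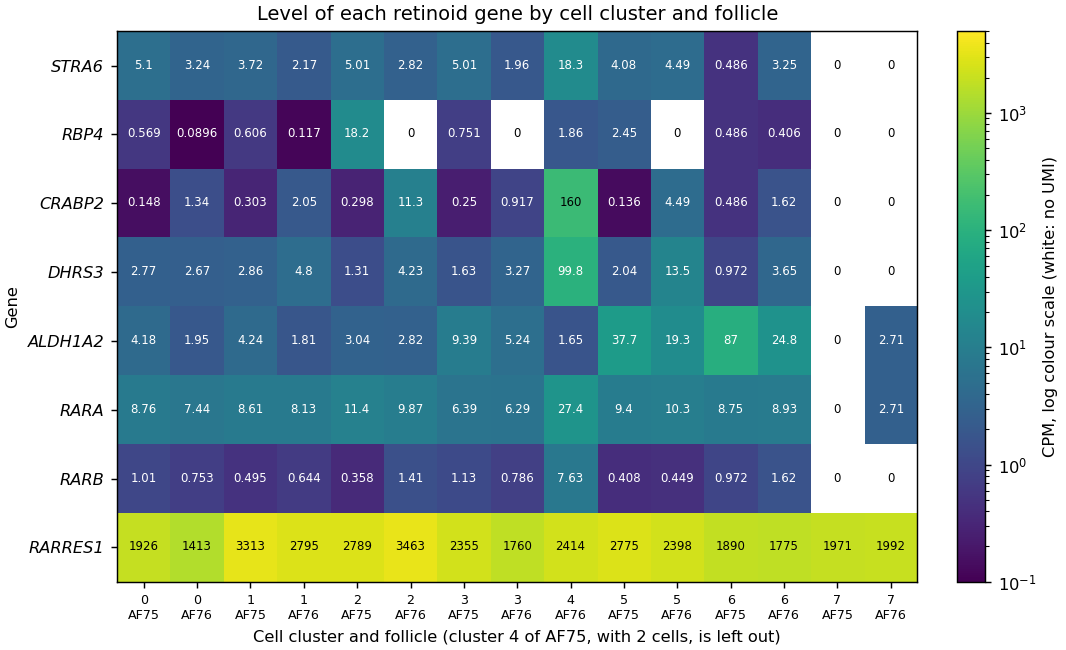
Level in CPM (printed in each cell of the grid, colour on a log scale, white for no UMI) of the 8 retinoid genes with UMIs by cluster and follicle, without the 2 AF75 cells of cluster 4. Cluster 4 of AF76 is highest for CRABP2, DHRS3, STRA6, RARA and RARB, cluster 6 is highest for ALDH1A2 in both follicles, and cluster 2 of AF75 is highest for RBP4.

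**Figure D4:**
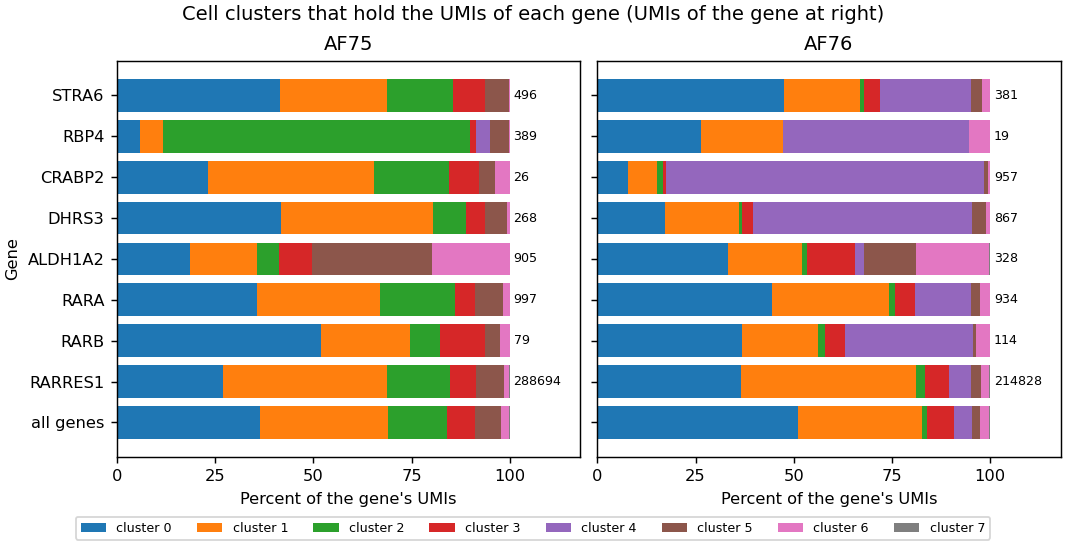
Percent of each retinoid gene's UMIs (x axis) held by each cluster (colours), by follicle, with the gene's UMIs at the right of its bar and the bar of all genes at the bottom. Cluster 4 gave 81.0% of the CRABP2 and 55.8% of the DHRS3 UMIs of AF76.

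The genes did not share 1 highest cluster. Of the 7 genes with at least 50 UMIs in AF75, 2 (RBP4 and ALDH1A2) were at least 2-fold higher in their highest cluster than in the other cells, beside 15.4% of 11399 genes. In AF76 the count was 6 of 7, all but RARRES1, beside 32.7% of 11420 genes, and for 5 of the 6 the cluster was cluster 4, beside 25% of all genes for that cluster. In AF76 the receptors, the retinoic acid carrier and the retinal reductase were all highest in cluster 4, where the retinal oxidising enzyme ALDH1A2 was at 1.65 CPM. The clusters were made from these cells, so the folds are a description of them.

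Shares of cells with a UMI depend on depth, and each cell was also thinned to 5000 UMIs, leaving out 19 AF75 and 105 AF76 cells. STRA6 was found in 4.09% of AF75 and 3.77% of AF76 cells, and in 2.04% and 1.67% after thinning. For RBP4 the shares were 1.30% and 0.191%, thinned 0.728% and 0.103%. CRABP2 was in 0.246% and 4.72% of cells, thinned 0.139% and 3.14%. DHRS3 was in 2.66% and 7.43%, thinned 1.13% and 3.92%. ALDH1A2 was in 5.13% and 2.59%, thinned 2.50% and 1.23%. The order of the follicles was the same before and after thinning for each of these. RARA was in 9.10% and 10.7%, thinned 4.09% and 4.45%, and RARB was in 0.801% and 1.39%, thinned 0.289% and 0.646%.

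As a background, leukocyte-like cells were looked at, which had 10 or more UMIs over at least 3 leukocyte markers. There was 1 in AF75 and there were 9 in AF76, 8 of them in cluster 4, with a median of 7526 UMIs. None of the 9 had a UMI of STRA6, RBP4, CRABP2, ALDH1A2 or RARB, while 4 had DHRS3, 3 had RARA and 4 had RARRES1. The granulosa marker INHA was at 5576 CPM in the 9, beside 2238 CPM in cluster 4 as a whole. They were thus not free of granulosa RNA, and its source was not tested. With 9 cells a background share for the genes at low levels was not measurable.

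Of the 58 other genes of the retinoid pathway listed by role, 54 were found in the tables, 8 of these had no UMI in either follicle, and 27 were under 1 CPM in both. Of the 34 with at least 50 UMIs, 1 was at least 2-fold higher in AF76, the carotenoid-cleaving BCO2 at 0.198 and 0.633 CPM in AF75 and AF76. The retinal oxidase ALDH1A3, at 1.62 and 0.633 CPM, and the homeobox target MEIS1, at 0.521 and 0.119 CPM, were at least 2-fold higher in AF75. ALDH1A3 was thus on the side of ALDH1A2, 2.55-fold (1.93 to 3.42) higher in AF75.

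By role, 6 of the 11 carriers found had at least 50 UMIs and none of the 6 was 2-fold apart: the lipoprotein receptor SCARB1 was at 1406 and 1462 CPM. None of the 7 enzymes of retinol oxidation with at least 50 UMIs was 2-fold apart, with RDH11 at 92.7 and 71.7 CPM, RDH14 at 69.9 and 82.4 CPM and ADH5 at 150 and 151 CPM. Among the clearance enzymes CYP26B1 was at 4.87 and 2.59 CPM, and CYP26A1 and CYP26C1 had no UMI. None of 5 further receptors and 6 cofactors was 2-fold apart, and the cofactors over 20 CPM were NCOA1 at 95.8 and 83.2, NCOA2 at 21.9 and 22.6, NCOA3 at 22.9 and 22.1, NCOR1 at 63.1 and 68.9 and NRIP1 at 91.1 and 96.8 CPM. The target TGM2, transglutaminase, was at 25.8 and 27.7 CPM.

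**Figure D5:**
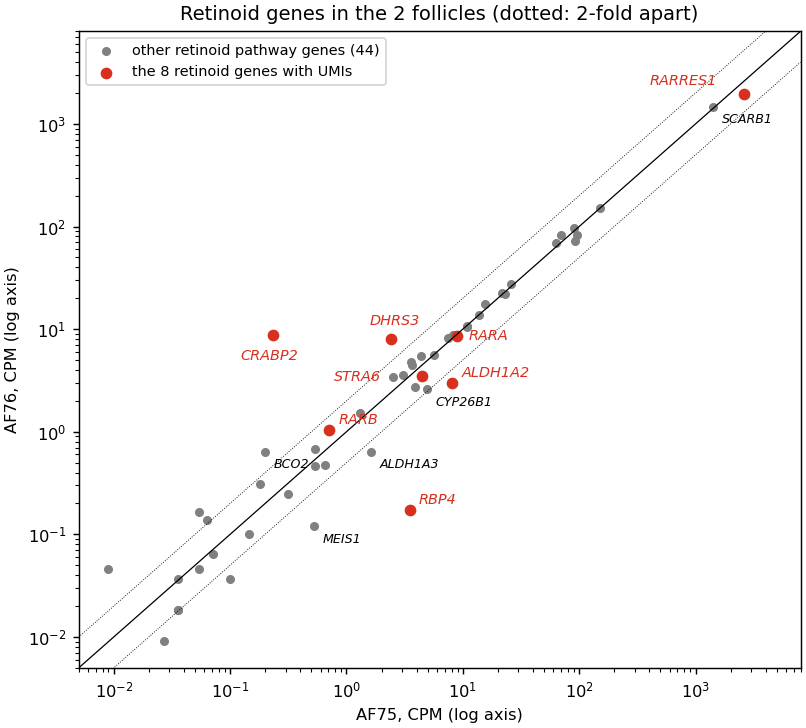
Level in AF75 and AF76 in CPM (log axes) of the 8 retinoid genes and of 44 other pathway genes with UMIs in both follicles. Dotted lines mark a 2-fold difference, and CRABP2, DHRS3, RBP4 and ALDH1A2 lie outside them.

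In cluster 4 of AF76, 11 of the 31 pathway genes with at least 50 UMIs in AF76 were at least 2-fold above the other cells of that follicle, beside the 25% of all genes. Among them the fatty acid carrier FABP5, which can also carry retinoic acid, was at 45.6 CPM beside 2.88, RORA at 55.2 beside 6.62 and TGM2 at 124 beside 23.2. SCARB1 was lower there, at 157 CPM beside 1523, and CYP26B1 was at 0.412 CPM from 2 UMIs beside 2.69.

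The filter on genes per barcode cut through the cells with CRABP2. In AF76, the 204 barcodes with 1800 to 1999 genes, just outside, were at 89.8 CPM of CRABP2 and the 242 with 2000 to 2199 genes, just inside, at 43.0 CPM. DHRS3 was at 41.8 and 52.1 CPM in the same barcodes. In AF75 RBP4 was at 15.1 CPM just outside this limit and 18.3 CPM just inside. At the upper limit, ALDH1A2 in AF75 was at 6.39 CPM (3.50 to 10.7, 14 UMIs) in barcodes of 4801 to 5000 genes. It was at 12.8 CPM (7.84 to 19.8, 20 UMIs) in those of 5001 to 5200. At the mitochondrial limit it was at 13.9 CPM (9.01 to 20.6, 25 UMIs) from 6% to 7%. From 7% to 8% it was at 7.45 CPM (2.99 to 15.3, 7 UMIs). The ALDH1A2 intervals overlap at both limits.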

How the data were processed

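Single-cell RNA was measured in 2 follicles, 1 library each, and the authors deposited raw UMI counts per gene and barcode made with Cell Ranger 6.0.2 on Sscrofa11.1. The values are whole-number counts that were not normalised. The 9 genes and all lists were chosen with earlier results of these data known.

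Barcodes with 2000 to 5000 genes and under 7% of UMIs from the 13 mitochondrial genes were kept. UMIs were summed per follicle and cluster and given as CPM with exact Poisson intervals. Ratios have exact conditional (Clopper-Pearson) intervals, and all intervals cover counting error only. With 1 library per follicle there is no replicate and no test. Clusters came from Seurat 5.3.0 (R 4.3.3): log normalisation to 10000, anchor integration on 2000 variable genes without the retinoid genes, 40 components, and the lowest resolution giving 8 clusters, since the study gives no resolution. A fold limit of 2 was used for genes with at least 50 UMIs. The leukocyte-like cells had 10 or more UMIs over 3 or more of 8 markers. Doublets were scored with Scrublet in scanpy 1.11.5, and taking out the top 6.9% was an alternative. Other alternatives changed the filters, scaling, thinning, cluster number, components and integration. The sums, ratios and intervals were tested on simulated data. Motifs were read with pysam 0.24.0, on numpy 2.4.6, scipy 1.17.1 and pandas 2.3.3.

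Named genes are the 9 genes, other pathway genes at 20 CPM or more or at least 2-fold apart, the 3 leading genes per cluster, the markers, and for each of the 9 with 500 or more UMIs the 3 genes most alike across clusters. CEMIP, CCDC80, TNFAIP6, ID1, ID3, PTGS2, INHA, SCG2, AREG, STAR, ACTA2, FDXR, FABP5, RXRA, RORA, CYP26A1, CYP26B1 and CYP26C1 were named after their values were seen where no rule covers them. The split of cluster 4 by CEMIP was likewise made after values were seen. Of 58 pathway genes, 54 matched, leaving out CD36, ADH7, PNPLA4 and CES1, and the values of 1 matched gene are not reported here. The files repeat the identifier as the name of 7356 features, and the RefSeq table named 1042 of them.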

Additional observations from a re-analysis of the deposited data

Results flagged for a closer look

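Barcodes outside the limits on genes entered the comparisons above only where all deposited barcodes or barcodes near a limit are named. DHRS3 was at 7.87 CPM from 37 UMIs in the 139 AF75 barcodes with over 5000 genes, beside 2.41 CPM in the AF75 cells kept. In the 7397 AF76 barcodes with under 2000 genes CRABP2 was at 37.5 CPM from 443 UMIs, beside 8.79 CPM in the AF76 cells kept. DHRS3 was at 20.3 CPM from 240 UMIs in those AF76 barcodes, beside 7.96 CPM in the cells kept. In the same AF76 barcodes the cluster 4 gene CEMIP was at 119 CPM, beside 46.1 CPM in the cells kept.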

How the results depend on the processing

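No ratio over all cells whose interval lay on 1 side of equal changed direction. RARA, at a log2 ratio of -0.06 with an interval across 0, was at 0.03 with wider limits on genes per barcode, 0.06 over all deposited barcodes and 0.05 as a mean of per-cell CPM. Within clusters, the ratios of ALDH1A2 in cluster 2 (log2 -0.11, and 0.47 as a mean of per-cell CPM) and of RARA in clusters 3 and 5, with intervals across 0, also changed sign. The count of genes at least 2-fold apart was 4 under every other filter, scaling and doublet setting tried except thinning to 5000 UMIs, where RARB at a log2 ratio of 1.09 made it 5, and it was 3 with cluster 4 left out, a setting chosen after seeing the data. The count for the highest cluster was 6 in AF76 throughout, and in AF75 it was 2, or 3 with at least 12 clusters (STRA6, 2.36-fold) and with the retinoid genes kept among the variable genes (RARB, 2.16-fold). DHRS3's log2 ratio of 1.72 was 2.37 as a mean of per-cell CPM and 2.20 thinned. CRABP2 in AF76 was 15.2 and 14.3 CPM in these settings beside 8.79, and its cluster 4 fold was 147 without doublets and 54.6 without cells of 5 or more UMIs (chosen after seeing the data). The RBP4 fold of its highest AF75 cluster was 46.6 with at least 12 clusters and 11.4 with at least 6. Of 72 recomputed ratios over all cells, 16 moved past the counting interval of the main value, as did 2 of 52 within clusters, 36 of 128 levels and 21 of 126 cluster folds. No paired analysis was possible because each follicle has 1 library and the only shared replicate number is 1. All of the genes but RARRES1 averaged under 1 UMI per cell, so a cell without a UMI cannot be read as a cell without the RNA.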

Other observations

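For the 6 retinoid genes with 500 or more UMIs in both follicles together, the genes most alike over the 13 sums of at least 50 cells (cluster by follicle) were ranked by Pearson's r of log2(CPM + 1), among 9608 genes. These sums share 2 libraries and differ in depth, cluster 4 is 1 of the points, and no p is given. CRABP2 was most like RASL11B (r = 0.990), SLC40A1 (0.977) and MITF (0.976). DHRS3 was most like AKIRIN2 (0.975), CWF19L2 (0.973) and DPF3 (0.971), and RARA was most like KLF9 (0.970), ADM (0.965) and GATAD2B (0.963). STRA6 was most like POLG (0.945), AIDA (0.9305) and UBE2R2 (0.914). ALDH1A2 followed CRYZ (0.926), TFRC (0.919) and SND1 (0.887), and RARRES1 followed an unnamed gene ENSSSCG00000016548 (0.922), NDRG4 (0.877) and STRBP (0.869). Between the retinoid genes themselves, r was 0.92 for CRABP2 and DHRS3, 0.83 for CRABP2 and RARA, and below 0 for ALDH1A2 with each other gene of the 6.

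In the 11 AF75 cells of cluster 6 richest in ALDH1A2, the mitochondrial electron carrier enzyme FDXR, which serves steroid synthesis, was at 286 CPM beside 45.7 CPM in the rest of the cluster.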
